A study of Homo sapiens with 8 samples.

Results

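The heat shock proteins of the HSP70, HSP110 and small heat shock families and the DNAJ co-chaperones were examined in U87 cells after knockdown of RND3. Members were all genes whose current symbol starts with HSPA, HSPB, HSPH, DNAJA, DNAJB or DNAJC, with array probes named through the RefSeq accession that the scanner files give for each probe. The rule found 70 genes, measured by 87 probes, among the 19483 genes that could be named on the array. There were 14 HSPA, 9 HSPB, 1 HSPH, 5 DNAJA, 12 DNAJB and 29 DNAJC symbols. Of the 70 genes, 68 code for protein, and the other two are the antisense RNA DNAJC27-AS1 and the pseudogene DNAJA1P5. The rule works on symbols, so it also took in HSPBP1, which binds HSP70, and HSPBAP1, which is named for binding HSPB1, although neither is a heat shock protein.

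HSP70 proteins bind short hydrophobic stretches of unfolded proteins and release them in a cycle driven by ATP. J proteins, the products of the DNAJ genes, bring clients to an HSP70 and stimulate its ATPase, and each compartment of the cell has its own set: HSPA8 and the stress-inducible HSPA1A and HSPA1B work in the cytosol and nucleus, HSPA5 in the lumen of the endoplasmic reticulum (ER) and HSPA9 in the matrix of mitochondria. HSP110 proteins exchange nucleotide on HSP70, and small heat shock proteins hold unfolding proteins without using ATP. The transcription factor HSF1 induces the cytosolic set on heat or proteotoxic stress, while the unfolded protein response induces the ER set. In glioma these chaperones are widely studied as proteins that tumour cells depend on.

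U87 is an established human glioblastoma cell line. It was reverse transfected with non-silencing control siRNA (siControl) or with siRNA against RND3 (siRND3), which encodes a small GTPase, and total RNA was collected after 24 h (3 arrays per treatment) or 48 h (1 array per treatment), with no other allele or agent in any group. The methods name a pair of RND3 oligos without saying which array received which, and the labels do not say whether replicates were separate transfections, so p-values measure the spread between these arrays, which may be technical. Each RNA was hybridised to a one-colour Agilent array, and values are given as the log2 of the processed spot signal after quantile normalisation, so that a difference of 1 is a doubling of signal. Levels are compared between arrays for the same probe only, never between probes.

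The knockdown could be seen in its target. RND3 read 11.88, 11.91 and 11.90 on the siControl arrays at 24 h and 10.12, 10.18 and 10.42 on the siRND3 arrays, a log2 difference of -1.66 ± 0.10 (SE, adjusted p = 0.000345 by limma), and at 48 h it read 11.48 and 9.84. The share of probes well above background ran from 68.3% to 70.7% over the arrays. The 4 siRND3 arrays lay in row 1 of a single slide and the 4 siControl arrays in row 2, so an effect of position and one of treatment cannot be told apart. The arrays at 24 h lay in columns 1 to 3 and those at 48 h in column 4, so position and time cannot be told apart either. Of 15 markers listed for cell types, the glial and mesenchymal VIM, NES and CD44 were well above background on all 8 arrays, GFAP and SOX2 on none and S100B on 1, and the epithelial KRT5, hepatocyte ALB and neuronal RBFOX3 were on none. PTPRC, CD14, EPCAM and CDH5 were flagged on 8 arrays and PECAM1 and OLIG2 on 7, although U87 is a single cell line. CD44, OLIG2 and PECAM1 were lower and NES higher after knockdown at 24 h, with log2 differences of -0.58, -1.40, -0.99 and 0.41, and their part in the results was not tested. In RNA from a whole culture, fewer cells that express a gene and less RNA per cell cannot be told apart.

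Of the 70 members, 63 had a probe that passed the filter for testing, which asked for a signal well above background on every array of either treatment group at 24 h (3 arrays). The probe that stands for a gene, the brightest at 24 h, was well above background on all 8 arrays for 61 members. DNAJA4, DNAJB7, DNAJB8, DNAJC5B, HSPA12B, HSPA1A and HSPB2 were not tested. HSPA1A stayed below the background flag throughout, with 2.92, 3.16 and 3.18 on the siControl arrays, 2.63, 2.98 and 3.26 on the siRND3 arrays at 24 h, and 1.70 and 2.58 at 48 h. Its neighbour HSPA1B codes for the same protein from a nearly identical transcript, so which of the pair a probe reads is uncertain, and the probe named HSPA1B was bright on every array.

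At 24 h, 2 of the 63 members tested were higher and 8 were lower after RND3 knockdown (limma, Benjamini-Hochberg adjusted p below 0.05 over all probes tested, 3 arrays against 3). Over all 14805 genes tested, 7.16% were higher and 9.26% lower, against 3.17% and 12.7% of members, so the share of members that moved was close to that of genes at large. With normexp background correction 6 members were higher and 8 lower, and with the authors' deposited values 5 and 8. The median log2 difference of members was 0.01, and that of all genes was 0.04. The lower members included the ER HSP70s HSPA5 and HSPA13 and the J proteins DNAJB9, DNAJC10, DNAJC18 and DNAJC22. These made up 6 of the 14 tested in a group called the ER group here. It holds ER HSP70s and J proteins that lie in the ER or, outside mitochondria, are thought to span a membrane. DNAJC18 and DNAJC22 were placed in it by hand from general knowledge, and their place in the ER was not tested. These role groups were chosen with earlier results known, and no test compared them. The remaining 2 were DNAJB1 in the cytosol and DNAJC6, and no other role group held more than 1 lower member. None of the 8 mitochondrial members, the 6 cytosolic HSP70s tested, the 3 HSP110s or the 6 small heat shock proteins tested passed at 24 h. The plot by role group gives each member's difference.

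**Figure D1:**
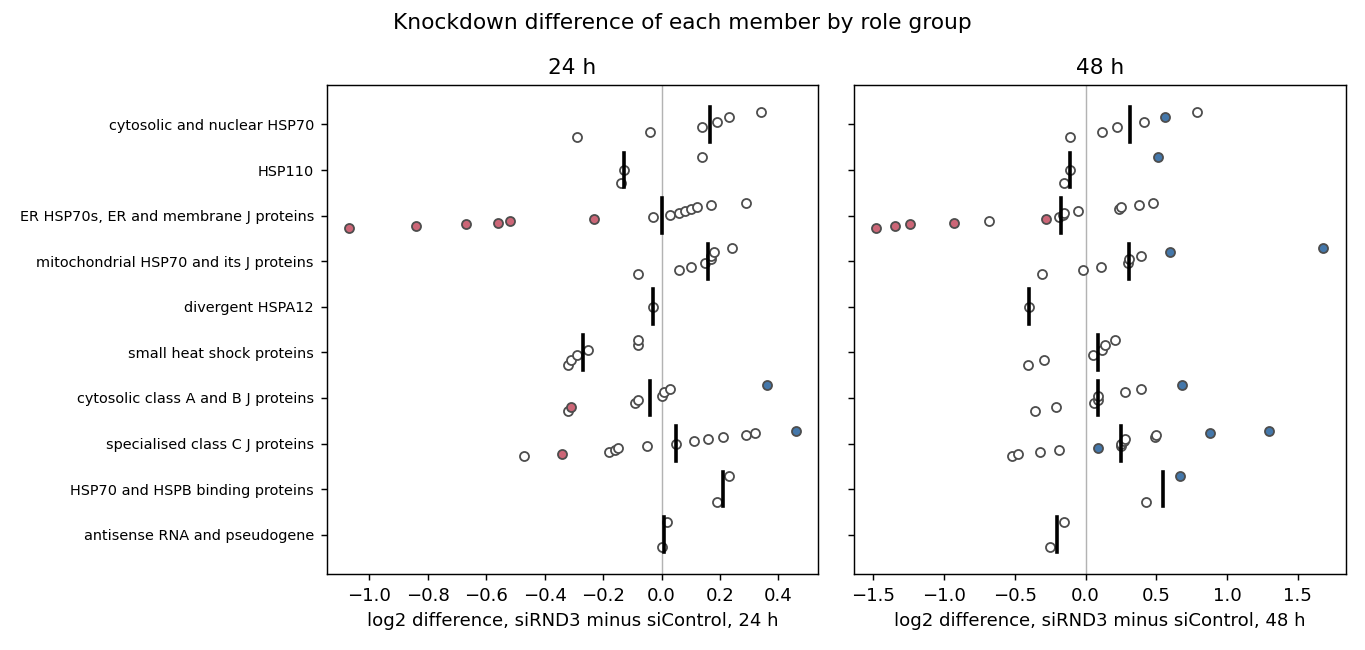
Log2 difference, siRND3 minus siControl, of each tested member at 24 h (left) and 48 h (right), by role group, with 1 probe per member. Filled points are genes called (red lower, blue higher), open points are not called, and black bars are group medians. DNAJC10 at -0.23 and -0.28 and DNAJC27 at 0.09 are filled because their other probe passed. The 6 red points of the ER group at 24 h lie between -1.07 and -0.23.

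HSPA5, also called BiP or GRP78, is the abundant HSP70 of the ER lumen and binds the stress sensors of the unfolded protein response. It read 12.20, 12.15 and 12.20 on the siControl arrays at 24 h and 11.68, 11.64 and 11.67 on the siRND3 arrays. The groups were far apart relative to their spread, with SDs of 0.03 and 0.02. The log2 difference was -0.52 ± 0.07 (SE, adjusted p = 0.00539), which leaves 69.8% of the siControl signal.

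At 48 h HSPA5 read 12.29 in siControl cells and 10.94 in siRND3 cells. The control lay near its level at 24 h and the knockdown array lay below all others. The difference at 48 h was -1.35 ± 0.11 (adjusted p = 0.000871 in a model of all 8 arrays that takes the single arrays at 48 h to vary like those at 24 h). The difference was larger at 48 h than at 24 h by -0.83 ± 0.13 (adjusted p = 0.0370), a call that was lost when any of the 6 arrays at 24 h was left out, with adjusted p from 0.0574 to 0.104.

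HSPA13, also called STCH, is an HSP70-like ATPase of the microsomes that lacks the substrate-binding domain. It read 10.64, 10.72 and 10.65 on the siControl arrays and 10.13, 10.01 and 10.17 on the siRND3 arrays at 24 h, with no overlap, a difference of -0.56 ± 0.08 (adjusted p = 0.00699). The values at 48 h were 10.76 in siControl and 9.29 in siRND3 cells, a difference of -1.48 ± 0.13 (adjusted p = 0.00104). As for HSPA5, the knockdown array at 48 h was the lowest of the 8. The change between the times was -0.91 ± 0.15 (adjusted p = 0.0390), and it too was lost when any 24 h array was left out, with adjusted p from 0.0533 to 0.110.

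The J proteins of the ER group that fell did so to different degrees. DNAJB9, also called ERdj4, is induced by the unfolded protein response and helps to keep its sensor IRE1 inactive together with HSPA5. It read 11.01, 11.00 and 11.13 on the siControl arrays and 10.41, 10.28 and 10.44 on the siRND3 arrays, a difference of -0.67 ± 0.08 (adjusted p = 0.00456). DNAJB9 read 11.48 and 10.24 at 48 h, a difference of -1.24 ± 0.14 (adjusted p = 0.00219). All 4 knockdown arrays lay below all 4 controls. The further difference at 48 h, -0.57, did not pass (adjusted p = 0.130).

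DNAJC10, also called ERdj5, is a reductase of the ER that breaks disulphide bonds in misfolded proteins. Its probes disagreed in size. The dimmer probe read 10.61, 10.59 and 10.55 on the siControl arrays and 9.50, 9.49 and 9.69 on the siRND3 arrays, a difference of -1.02 ± 0.08 (adjusted p = 0.000972), followed by 10.60 and 9.04 at 48 h, a difference of -1.56 ± 0.14 (adjusted p = 0.00107). With the mean of its probes the differences of DNAJC10 were -0.63 and -0.92 and still passed. The brighter probe, which stands for the gene, read 11.42, 11.39 and 11.29 against 11.03, 11.08 and 11.30, with overlap between the groups and a difference of -0.23 ± 0.10 that did not pass (adjusted p = 0.182). At 48 h the brighter probe differed by -0.28 (adjusted p = 0.338). The gene's call rests on the dimmer probe, and the files do not say which transcripts each probe reads.

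DNAJC18, a J protein with a predicted membrane span, read 7.35, 7.26 and 7.13 on the siControl arrays and 6.53, 6.37 and 6.34 on the siRND3 arrays, a difference of -0.84 ± 0.09 (adjusted p = 0.00346). At 48 h it read 7.14 and 6.21, a difference of -0.93 ± 0.16 (adjusted p = 0.0104), and all knockdown arrays were below all controls. DNAJC22, a J protein with several membrane spans, read 7.40, 7.37 and 7.51 on the siControl arrays and 6.0, 6.61 and 6.45 on the siRND3 arrays. The siRND3 replicates were more scattered, with an SD of 0.32 against 0.07, but did not overlap with the controls, and the difference of -1.07 ± 0.16 passed (adjusted p = 0.00949), as did a smaller one of -0.61 with normexp. At 48 h the values were 7.12 and 6.44, and the difference of -0.68 ± 0.28 did not pass (adjusted p = 0.150).

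**Figure D2:**
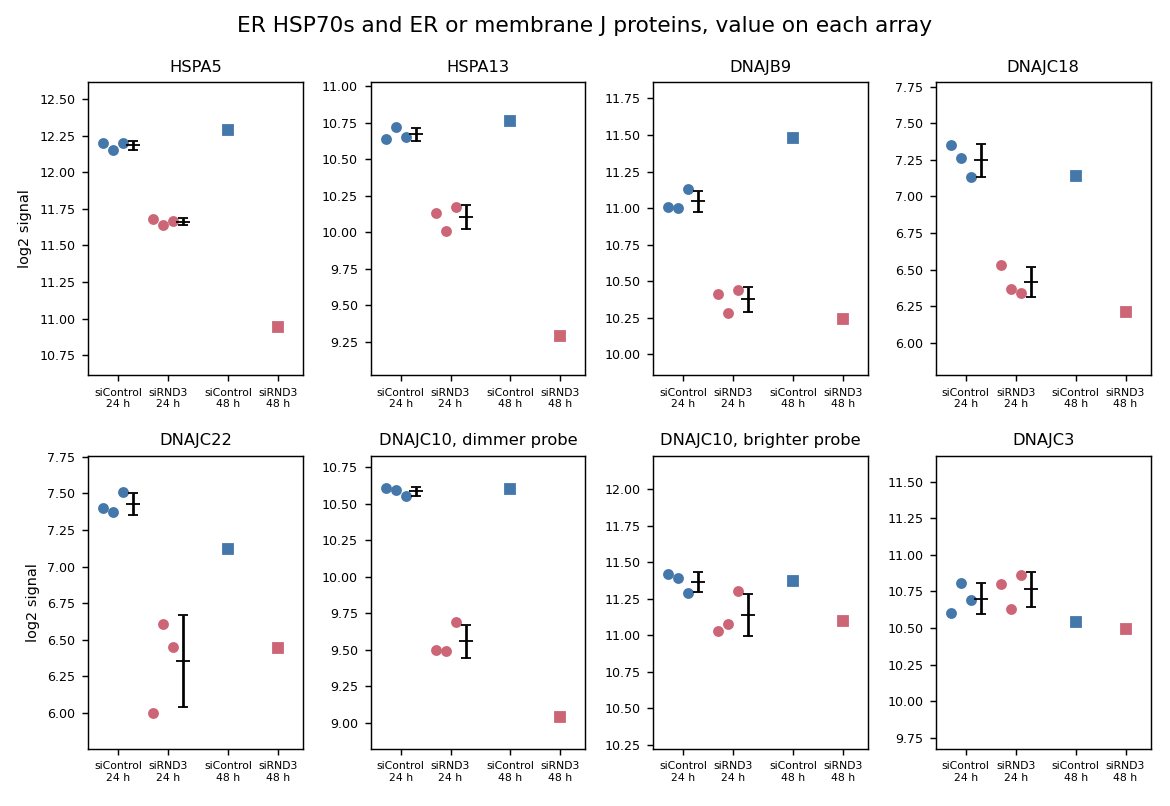
Log2 signal on each array for 6 members of the ER group that were called at 24 h, with both probes of DNAJC10, and for DNAJC3, which was not called. Circles are the 3 arrays per treatment at 24 h with mean and SD beside them, squares are the single arrays at 48 h, blue is siControl and red is siRND3; each panel has its own axis. For HSPA5 the siRND3 arrays sit at 11.64 to 11.68 at 24 h and 10.94 at 48 h, below every siControl array.

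The other 8 members of the ER group did not pass at 24 h, with differences from -0.03 to 0.29 for 1 probe each. These members include partners of HSPA5. DNAJC3, also called p58IPK and itself a target of the unfolded protein response, read 10.60, 10.81 and 10.69 on the siControl arrays and 10.80, 10.63 and 10.86 on the siRND3 arrays, with full overlap and a difference of 0.06 ± 0.10 (adjusted p = 0.719). The values at 48 h were 10.54 and 10.49. DNAJB11, also called ERdj3 and the main soluble J protein of the ER lumen, differed by -0.03 ± 0.07 at 24 h (adjusted p = 0.845) and by -0.16 at 48 h (adjusted p = 0.505). DNAJC1, DNAJC16, DNAJC25, DNAJB12 and DNAJB14 differed by 0.08, 0.03, 0.12, 0.10 and 0.17 at 24 h. With 1 probe each, the difference of DNAJC14 was the highest of the group at 0.29 ± 0.08 (limma, adjusted p = 0.0670). Its means were 9.76 ± 0.09 and 10.05 ± 0.05 (SD, n = 3). A dimmer probe of DNAJC14 gave 0.41 ± 0.19 and a dimmer probe of DNAJC1 gave -0.12, and neither passed.

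The genes of the unfolded protein response that are no members gave a mixed picture too. Of a list of 14, HERPUD1, a component of ER-associated degradation, and XBP1, the transcription factor spliced by IRE1, were lower at 24 h and none was higher. Over all genes tested 9.26% were lower and 7.16% higher at 24 h, and the list was not tested against these shares. HERPUD1 fell from a mean of 13.59 to 13.11 (log2 difference -0.48 ± 0.08, adjusted p = 0.0168) and XBP1 from 12.64 to 12.24 (-0.40 ± 0.08, adjusted p = 0.0242). At 48 h neither passed, and the ER chaperone-like CRELD2 and the pseudokinase TRIB3 were higher, by 0.51 and 0.73. TRIB3 read 9.98 in siControl and 10.71 in siRND3 cells at 48 h, both below its means of 11.00 and 11.02 at 24 h. CRELD2 read 12.69 and 13.21, against means of 13.06 and 13.26. SIL1, a nucleotide exchange factor of HSPA5, was 0.31 ± 0.08 higher at 24 h without passing (limma, adjusted p = 0.0629) and 0.93 ± 0.15 higher at 48 h. HYOU1, another ER exchange factor, differed by 0.02 at 24 h and by -0.28 at 48 h and passed at neither time. SEC63, an ER membrane J protein named without the DNAJ prefix, was called lower at 48 h by 1 of its probes. The brighter SEC63 probe differed by 0.16 at 48 h, the other way, and did not pass.

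Promoters are shown for HSPA5 and HSPA13, which fell together, and for HSPA8 and HSPA1B, cytosolic HSP70s that did not pass at 24 h. The sequences are the 250 bases before the RefSeq start site in build GRCh38.p14, 5′ to 3′ on the strand of the gene: chr9:125241344-125241593 (minus strand), chr21:14383147-14383396 (minus strand), chr11:123062137-123062386 (minus strand) and chr6:31827488-31827737 (plus strand). Capitals mark the ER stress element, searched as CCAAT, any 9 bases and CCACG, and the heat shock element, searched as GAANNTTC or TTCNNGAA where N is any base, both on either strand.
HSPA5: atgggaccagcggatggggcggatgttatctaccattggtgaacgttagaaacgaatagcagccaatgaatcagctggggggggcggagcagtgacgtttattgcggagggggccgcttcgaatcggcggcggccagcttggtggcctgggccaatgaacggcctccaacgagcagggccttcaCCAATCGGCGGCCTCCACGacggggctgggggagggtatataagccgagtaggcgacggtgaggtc
HSPA13: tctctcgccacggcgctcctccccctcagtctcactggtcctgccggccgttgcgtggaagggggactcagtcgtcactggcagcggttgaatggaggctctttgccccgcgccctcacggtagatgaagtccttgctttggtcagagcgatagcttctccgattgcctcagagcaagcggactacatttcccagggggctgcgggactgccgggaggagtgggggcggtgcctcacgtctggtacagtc
HSPA8: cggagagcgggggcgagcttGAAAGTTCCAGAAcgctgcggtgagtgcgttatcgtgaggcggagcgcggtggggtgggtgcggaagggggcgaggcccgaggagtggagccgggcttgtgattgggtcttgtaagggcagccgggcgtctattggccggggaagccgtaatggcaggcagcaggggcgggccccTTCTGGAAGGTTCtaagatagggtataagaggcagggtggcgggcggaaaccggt
HSPA1B: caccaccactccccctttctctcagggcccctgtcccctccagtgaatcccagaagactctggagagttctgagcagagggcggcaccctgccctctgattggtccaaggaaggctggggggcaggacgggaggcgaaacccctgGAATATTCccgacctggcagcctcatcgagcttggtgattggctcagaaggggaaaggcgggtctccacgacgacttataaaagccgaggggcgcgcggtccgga

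Promoters were given for 62 of the 70 members, the exceptions being DNAJA1P5, DNAJC1, DNAJC22, DNAJC24, DNAJC5B, HSPA12B, HSPA14 and HSPB2. The ER stress element was found before HSPA5 and before no other member, at 66 to 48 bases from the start, and before 0.0806% of 27305 RefSeq promoters. None of the other lower members of the ER group with a promoter held these letters in this window. The heat shock element was found before 13 of the 62 members (21%), against 11.7% of all promoters. The 13 were DNAJA1, DNAJB6, DNAJB7, DNAJC15, HSPA1A, HSPA1B, HSPA1L, HSPA6, HSPA8, HSPB1, HSPB3, HSPB6 and HSPB8, of the cytosolic, small heat shock and mitochondrial groups. A longer form, in which these letters run on to a further inverted unit, was found before DNAJB6, HSPA6 and HSPA8, and before 0.439% of all promoters. None of the 7 members with a promoter that were lower at 24 h, DNAJB1 included, held the heat shock element in this window. These are matches of letters, and binding was not measured.

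The cytosolic HSP70s gave no call at 24 h, with differences from -0.29 to 0.34 for 1 probe each. The lowest was that of HSPA6, whose other probe gave 0.28, the other way, and neither passed. HSPA8, the constitutive HSP70 of the cytosol, read 14.89, 14.59 and 14.79 on the siControl arrays and 14.53, 14.86 and 14.77 on the siRND3 arrays. The groups overlapped fully and the difference of -0.04 ± 0.12 did not pass (adjusted p = 0.869); its sign turned when arrays were scaled to their 75th percentile. At 48 h HSPA8 read 14.59 and 14.71.

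HSPA1B, one of the stress-inducible HSP70s, read 11.60, 11.64 and 11.67 on the siControl arrays and 11.68, 11.74 and 11.91 on the siRND3 arrays. The groups touched without overlap and the difference of 0.14 ± 0.08 did not pass (adjusted p = 0.329). At 48 h HSPA1B read 11.08 in siControl and 11.64 in siRND3 cells, and the difference of 0.56 ± 0.15 passed (adjusted p = 0.0420). That call was lost with no filter on dim probes and without each siControl array at 24 h or siRND3 replicate 2, with adjusted p up to 0.0848. The siRND3 value at 48 h was below the siRND3 arrays at 24 h and within the range of the siControl arrays at 24 h. The siControl value at 48 h was the lowest of the 8. HSPA2, a family member best known from the testis, read 7.68, 7.37 and 7.67 on the siControl arrays and 7.68, 7.94 and 8.11 on the siRND3 arrays at 24 h (difference 0.34 ± 0.14, adjusted p = 0.178), and 7.70 and 8.48 at 48 h (0.79 ± 0.25, adjusted p = 0.0731). Neither difference of HSPA2 passed, but the one at 48 h did with normexp (0.63, adjusted p = 0.0233), with the deposited values (0.71, adjusted p = 0.0302) and without siRND3 replicate 1 (adjusted p = 0.0482).

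Of the HSP110s, HSPH1, also called HSP105, read 12.73, 12.64 and 12.65 on the siControl arrays and 12.62, 12.44 and 12.57 on the siRND3 arrays. The siRND3 arrays were all lower, but the difference of -0.13 ± 0.08 did not pass (adjusted p = 0.339). HSPH1 read 12.46 and 12.35 at 48 h. HSPA4, also called APG-2, differed by 0.14 ± 0.07 at 24 h (adjusted p = 0.259) and was higher at 48 h, at 14.34 against 13.83 (0.51 ± 0.13, adjusted p = 0.0367). Its other probe gave 0.49 at 48 h and did not pass. The call of HSPA4 at 48 h was lost without each siControl array at 24 h.

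The mitochondrial group had no call at 24 h, with differences from -0.08 to 0.24 for 1 probe each. HSPA9, also called mortalin and the HSP70 of the mitochondrial matrix, read 12.16, 12.16 and 12.18 on the siControl arrays and 12.23, 12.18 and 12.26 on the siRND3 arrays. The spread was small and the difference of 0.06 ± 0.07 did not pass (adjusted p = 0.644). The values at 48 h were 12.05 and 12.36, a difference of 0.30 ± 0.12 (adjusted p = 0.131).

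DNAJC28, a little-studied J protein placed in mitochondria, behaved differently at the later time. It read 5.20, 5.40 and 5.11 on the siControl arrays and 5.24, 5.34 and 5.67 on the siRND3 arrays at 24 h, with overlap and a difference of 0.18 ± 0.14 (adjusted p = 0.450). At 48 h it read 4.82 and 6.50, a difference of 1.68 ± 0.24 (adjusted p = 0.00492), which was 0.70 with normexp and 1.03 with the deposited values and still passed. The siRND3 array at 48 h was the highest of the 8 and the siControl array the lowest. The difference exceeded that at 24 h by 1.50 ± 0.28 (adjusted p = 0.0476), a call that was lost under scaling to the 75th percentile (adjusted p = 0.0513), with the mean of all probes (0.0511), with no filter on dim probes (0.0777) and when any 24 h array but siRND3 replicate 3 was left out (up to 0.106). DNAJC30 was also higher at 48 h, at 10.30 against 9.70 (0.60 ± 0.15), and its other probe gave 0.55 and did not pass. At 24 h the brighter probe read 9.99, 10.08 and 10.03 on the siControl arrays and 10.20, 10.33 and 10.08 on the siRND3 arrays. The siRND3 value at 48 h lay within that siRND3 range, and the siControl value lay below its own. The call of DNAJC30 was lost with no filter on dim probes and without each siControl array at 24 h or siRND3 replicate 1.

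Small heat shock proteins had no call at either time. HSPB1, also called HSP27, which binds actin filaments as well as unfolding proteins, read 14.90, 15.32 and 15.29 on the siControl arrays and 14.44, 14.99 and 15.16 on the siRND3 arrays. It varied more within groups than the other best known members, with SDs of 0.23 and 0.38, and the difference of -0.31 ± 0.21 did not pass (adjusted p = 0.390). A dimmer HSPB1 probe differed by 0.15 (adjusted p = 0.363), the other way. At 48 h HSPB1 read 14.92 and 15.06. The 6 members tested had differences from -0.32 to -0.08 at 24 h, all below 0, with a median of -0.27, and from -0.41 to 0.21 at 48 h. HSPB3 came nearest to a call at 24 h, with 9.34, 9.35 and 9.24 against 9.18, 8.95 and 8.85 (-0.32 ± 0.10, adjusted p = 0.0995).

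Among the cytosolic J proteins of classes A and B, DNAJB5 rose and DNAJB1 fell at 24 h. DNAJB5 read 9.91, 9.90 and 9.86 on the siControl arrays and 10.26, 10.30 and 10.19 on the siRND3 arrays, without overlap, a difference of 0.36 ± 0.07 (adjusted p = 0.0228). Its other probe gave 0.35 ± 0.08 (adjusted p = 0.0334). The call of DNAJB5 was lost with the replicate block (adjusted p = 0.0766) and when any array but siRND3 replicate 3 was left out, with adjusted p from 0.0534 to 0.105. At 48 h DNAJB5 read 10.12 and 10.41, a difference of 0.28 ± 0.12 that did not pass (adjusted p = 0.174).

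DNAJB1, also called HSP40 and the main heat-inducible partner of cytosolic HSP70, read 11.24, 11.15 and 11.17 on the siControl arrays and 10.92, 10.81 and 10.91 on the siRND3 arrays. The difference of -0.31 ± 0.07 was close to the threshold (adjusted p = 0.0449) and was lost when any array was left out, with adjusted p up to 0.149, and with the replicate block (adjusted p = 0.104), scaling to the 75th percentile, no filter on dim probes and SAM. DNAJB1 read 10.99 and 10.78 at 48 h (-0.21 ± 0.13, adjusted p = 0.347). DNAJA1, a class A partner of HSPA8, read 13.24, 13.02 and 13.17 against 13.02, 13.14 and 13.30, with full overlap and a difference of 0.01 ± 0.10 (adjusted p = 0.956), whose sign changed without siControl replicate 2 and without siRND3 replicate 3. At 48 h DNAJA1 read 13.06 and 13.15. DNAJB13, a J protein known from sperm flagella and cilia, read 4.95, 4.77 and 4.87 against 4.69, 4.96 and 4.71 at 24 h (-0.08 ± 0.10, adjusted p = 0.680, with a sign that turned to positive under scaling to the 75th percentile, normexp correction and the deposited values) and 4.60 and 5.28 at 48 h (0.68 ± 0.18, adjusted p = 0.0413). The call of DNAJB13 at 48 h was lost with the 75th percentile, with no filter, without any siControl array or siRND3 replicate 3, and with normexp, which gave 0.29 (adjusted p = 0.0956).

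**Figure D3:**
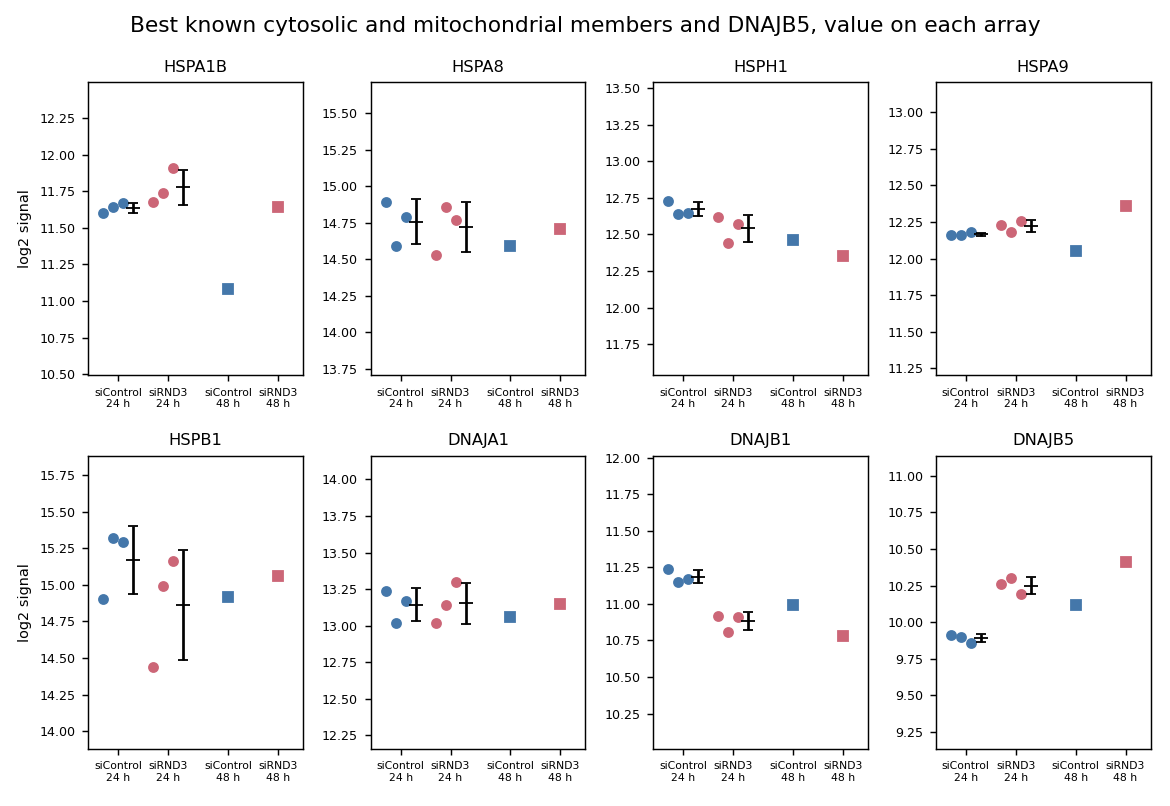
Log2 signal on each array for 7 of the best known cytosolic and mitochondrial members and for DNAJB5. Circles are the 3 arrays per treatment at 24 h with mean and SD, squares the single arrays at 48 h, blue siControl and red siRND3; each panel has its own axis. DNAJB1 and DNAJB5 separate by treatment at 24 h and were called. HSPA1B and HSPH1 separate too but were not called at 24 h, and HSPA8, HSPA9, HSPB1 and DNAJA1 overlap.

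Among class C proteins with special roles, DNAJC17, a nuclear J protein with an RNA recognition motif, was higher and DNAJC6 lower at 24 h. DNAJC17 read 7.17, 7.21 and 7.20 on the siControl arrays and 7.48, 7.71 and 7.75 on the siRND3 arrays, without overlap (0.46 ± 0.09, adjusted p = 0.0260). The call of DNAJC17 was lost with the replicate block (adjusted p = 0.0636) and when any array but siRND3 replicate 1 was left out, with adjusted p from 0.0652 to 0.0942. At 48 h it read 7.23 and 7.72 (0.49 ± 0.16, adjusted p = 0.0808). DNAJC6, also called auxilin and needed by HSPA8 to strip clathrin from vesicles, read 9.56, 9.68 and 9.73 on the siControl arrays and 9.29, 9.29 and 9.37 on the siRND3 arrays (-0.34 ± 0.08, adjusted p = 0.0389).

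DNAJC6 read 9.24 and 8.75 at 48 h (-0.48 ± 0.13, adjusted p = 0.0519), and its call at 24 h was lost when any array was left out, with adjusted p up to 0.148, with the replicate block (adjusted p = 0.0891) and with no filter on dim probes (adjusted p = 0.0537). DNAJC12, a partner of aromatic amino acid hydroxylases, read 5.54, 5.19 and 5.68 against 5.38, 5.27 and 5.20 at 24 h, with overlap (-0.18 ± 0.14, adjusted p = 0.433), and 4.76 and 5.64 at 48 h (0.88 ± 0.24, adjusted p = 0.0467). The difference of DNAJC12 at 48 h was 0.49 with the deposited values, and its call was lost with normexp (0.31, adjusted p = 0.0806), with the 75th percentile, with no filter, and without siControl replicate 1 or any siRND3 array at 24 h. DNAJC5G, a relative of the synaptic cysteine string protein, was dim. It read 4.03, 4.71 and 4.18 on the siControl arrays and 3.71, 3.87 and 3.94 on the siRND3 arrays at 24 h, where it was well above background on 3 and 1 of 3 arrays (-0.47 ± 0.18, adjusted p = 0.157). At 48 h it read 3.82 on the siControl array, where it was not well above background, and 5.13 on the siRND3 array, which is at least 2.47-fold higher in these normalised values (adjusted p = 0.0327). The log2 difference of DNAJC5G at 48 h, 1.30, fell to 0.25 with normexp (adjusted p = 0.154) and to 0.39 with the deposited values (adjusted p = 0.0899), so neither the call nor the bound held there. The call was also lost with no filter (adjusted p = 0.0749) and without siControl replicate 3, siRND3 replicate 2 or siRND3 replicate 3 (up to 0.0601). DNAJC27 was called higher at 48 h by its dimmer probe (5.53 and 6.44, 0.91 ± 0.25), while the brighter probe differed by 0.09 and did not pass. At 24 h the dimmer probe read 5.95, 5.95 and 5.59 on the siControl arrays and 6.13, 6.19 and 6.49 on the siRND3 arrays. Its siRND3 value at 48 h lay within that siRND3 range, and its siControl value lay below the siControl range. The call of DNAJC27 was lost with the 75th percentile, with no filter and with the mean of its probes. It was also lost without replicate 1 or replicate 2 of either treatment at 24 h.

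At 48 h, 9 members were higher and 5 lower, which is 14.3% and 7.94% of the 63 tested, against 14.3% higher and 13.3% lower over all genes. Scaled to the 75th percentile of each array, the counts were 6 and 6. The median difference of members was 0.11 and that of all genes 0.06. The 5 lower members, HSPA5, HSPA13, DNAJB9, DNAJC10 and DNAJC18, all belong to the ER group and were all lower at 24 h as well. The 9 higher members were DNAJB13, DNAJC12, DNAJC27, DNAJC28, DNAJC30, DNAJC5G, HSPA1B, HSPA4 and HSPBAP1, none of which passed at 24 h, and none of which is in the ER group. HSPBAP1 read 8.60 and 9.27 at 48 h, a difference of 0.67. At 24 h it read 8.94, 8.96 and 9.05 on the siControl arrays and 9.12, 9.22 and 9.30 on the siRND3 arrays. The siRND3 value of HSPBAP1 at 48 h thus lay within the siRND3 range at 24 h, and the siControl value lay below its own. There is 1 array per treatment at 48 h, so these calls borrow their spread from 24 h.

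**Figure D4:**
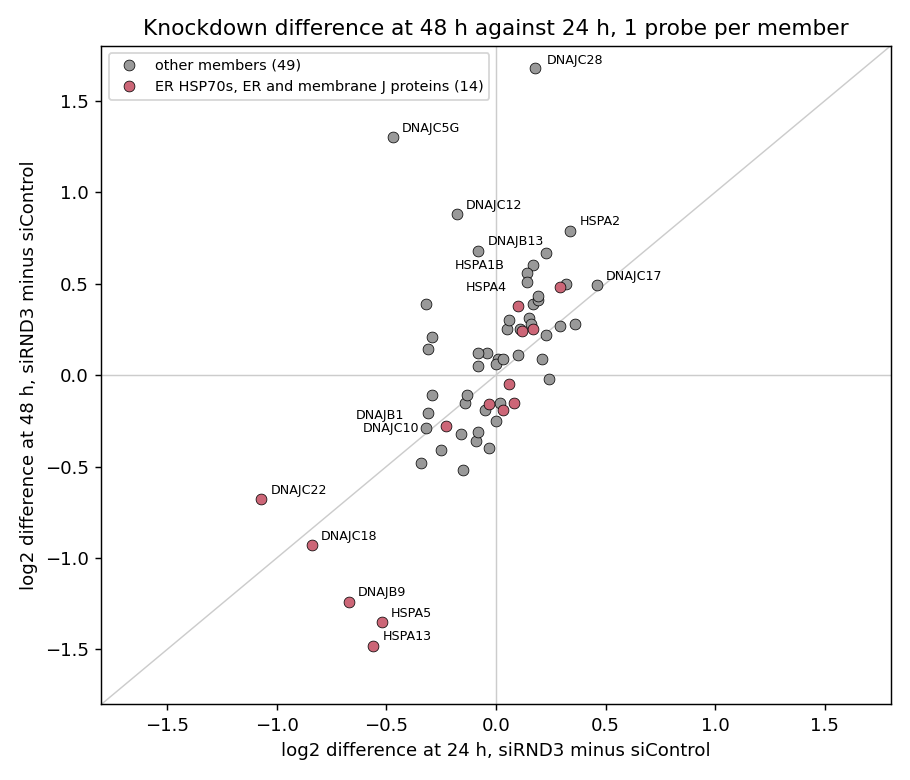
Log2 difference, siRND3 minus siControl, at 48 h (1 array per treatment) against that at 24 h (3 arrays per treatment) for the 63 tested members, 1 probe per member. Red points are the 14 members of the ER group and the diagonal marks equal differences. HSPA13, HSPA5 and DNAJB9 lie below the diagonal at -1.48, -1.35 and -1.24 at 48 h, and DNAJC28 lies above it at 1.68.

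The knockdown effect itself differed between the times for 3 members. DNAJC28 was more positive at 48 h, which is 1.59% of members against 1.68% of all genes, and HSPA5 and HSPA13 were more negative, 3.17% against 2.56%. In siControl cells, DNAJC27 was higher and HSPB7 lower at 48 h than at 24 h, each 1.59% of members, against 1.19% higher and 3.99% lower over all genes. In siRND3 cells, 2 members were higher (DNAJC28 and DNAJC5G, 3.17%) and 6 lower (DNAJC10, DNAJC6, HSPA12A, HSPA13, HSPA5 and HSPB7, 9.52%), against 3.61% and 9.19% over all genes. HSPA5 fell by 0.72 on the log2 scale in siRND3 cells between the times (adjusted p = 0.00862) and differed by 0.11 in siControl cells (adjusted p = 0.546). HSPA13 fell by 0.82 in siRND3 cells (adjusted p = 0.00922) and differed by 0.09 in siControl cells (adjusted p = 0.651). DNAJC27 was called in siControl cells by its brighter probe (0.55), while its dimmer probe differed by -0.29, the other way. That call was lost with no filter on dim probes, with the mean of its probes and with any array at 24 h left out. HSPB7, a small heat shock protein known from heart muscle, was lower at 48 h in both treatments. It read 5.77, 5.79 and 5.78 on the siControl arrays at 24 h and 3.46 at 48 h, which is 4.98-fold lower in these normalised values. In siRND3 cells it read 5.34, 5.73 and 5.51 at 24 h and 3.05 at 48 h, which is 5.56-fold lower. Each fold rests on 1 array at 48 h, where HSPB7 was not well above background.

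The siControl and siRND3 arrays at 24 h did not overlap for 30 of the 63 members (47.6%), against 41.1% of all genes with 1 probe each. Of the 30, 17 were higher and 13 lower in siRND3 cells. With 1 probe per gene, the 53 members not called at 24 h had differences between -0.47 and 0.34, and 44 members were called at neither time. Dimmer probes reached -0.57 for DNAJB2, whose brighter probe gave 0.00, and 0.44 for DNAJC27, and neither passed at 24 h. Each of 16 members had several tested probes, and for 10 of them the probes gave 1 sign at 24 h. The largest gap between probes of a gene was 0.79, for DNAJC10.

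Other parts of the chaperone machinery were read for comparison. Over all genes tested 7.16% were higher and 9.26% lower at 24 h, and the shares at 48 h are given above. No list below was tested against these shares, so its few calls are not read as a trait of the list. Of HSF1, HSF2 and HSF4 and the heat shock factor binding protein HSBP1, none passed at either time, and HSF1 differed by -0.01 ± 0.07 at 24 h (adjusted p = 0.972). Of 15 genes for HSP90 proteins and chaperonin subunits, HSP90AB1 and CCT5 were lower at 24 h and none was higher. HSP90AB1, the constitutive cytosolic HSP90, read 13.90, 13.56 and 13.81 on the siControl arrays and 12.82, 13.11 and 13.07 on the siRND3 arrays (-0.76 ± 0.12, adjusted p = 0.0133). CCT5, a subunit of the cytosolic chaperonin, had means of 7.43 and 6.75 (-0.67 ± 0.09, adjusted p = 0.00705). Both were lower at 48 h too, by -1.02 and -1.19, while CCT6B was higher, by 0.92. CCT6B read 5.01 in siControl and 5.93 in siRND3 cells at 48 h, against a mean of 5.84 in each at 24 h. Of 20 exchange factors and other co-chaperones, BAG4 was lower at 24 h (-0.67 ± 0.13, limma, adjusted p = 0.0240). At 48 h FKBP5, GRPEL2, PPID, SGTA, SIL1 and ST13 were higher, by 0.60 to 1.16. For each of these the siControl array at 48 h lay below the siControl mean at 24 h, at 4.06 against 4.84 for FKBP5. None of 6 J proteins and small heat shock proteins tested under other symbols passed at 24 h.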

How the data were processed

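Total RNA from U87 cells was labelled with Cy3 and hybridised to Agilent human 8x60k arrays, 1 array per sample. The authors deposited the scanner output of Agilent Feature Extraction 10.7.3.1, whose intensity columns hold a processed signal, spot and local background medians and flags, and a table of log2 values per spot. That deposited log2 table ranked the spots of each array like their median signal, and the methods give quantile normalisation. The authors' statistical test was SAM at a false discovery rate of 5%.

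Here, log2 of the processed signal of 58717 non-control spots was quantile normalised over 8 arrays, spots flagged as outliers were left out, and spots of a probe were averaged. The array's annotation (hg19) was not used for names: 25422 of 42405 probes (60.0%) were named by RefSeq accession in a gene table of GRCh38.p14, giving 19483 genes. A probe was tested (28759 were) if well above background on all 3 arrays of a group at 24 h. At 24 h limma 3.58.1 (R 4.3.3) compared 3 arrays with 3; the 48 h, time and interaction comparisons came from 1 model of 4 groups, in which single arrays are assumed to vary like those at 24 h. P-values were adjusted by Benjamini-Hochberg over all tested probes, and a gene was called below 0.05 if at least 1 probe passed and none the other way. The fits were tested on simulated data. The brightest probe at 24 h stood for a gene. The bound printed for DNAJC5G ("at least") sets the bright array against the dim one. The dim value is the higher of that array's lowest signal well above background and the probe's own signal there. The probe's own signal was the higher, so the bound equals the fold. Precision is limited by the number of arrays.

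Members with values on every array were those passing at 24 h or in the interaction, those with the 5 largest rises and 5 largest falls at 48 h, and 11 best known members; other genes were named from lists when they passed, and remaining names were chosen after their values were seen. Members, role groups and lists were chosen with earlier results of these data known. Alternatives covered scaling, background correction, the deposited values, arrays normalised together, filters, SAM, the replicate block, time as a term, several probes and leaving out each array. Protein sequences were not analysed here.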

Additional observations from a re-analysis of the deposited data

Results flagged for a closer look

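The knockdown effect of 3 members differed between the times when the difference itself was tested. Between 24 h and 48 h the effect on HSPA5 shifted by -0.83 on the log2 scale (limma, adjusted p = 0.0370), with effects of -0.52 and -1.35. For HSPA13 it was -0.91 (adjusted p = 0.0390), with effects of -0.56 and -1.48. For DNAJC28 it was 1.50 (adjusted p = 0.0476), with effects of 0.18 and 1.68. Each effect at 48 h rests on 1 array per treatment. Over the alternatives the adjusted p ranged from 0.00506 to 0.104 for HSPA5, from 0.0132 to 0.110 for HSPA13 and from 0.0155 to 0.106 for DNAJC28.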

How the results depend on the processing

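The count of members lower at 24 h was 8 and stayed between 6 and 9 under 16 alternatives; the 6 of the ER group were in every such set, and DNAJB1 and DNAJC6 were the ones lost. The count lower at 48 h was 5 and stayed between 5 and 7 under 12 alternatives, none of which lost a gene. Calls of higher members were less stable. At 24 h they numbered 2, and 6 with normexp, 5 with the deposited values, 6 with all 8 arrays and time as a term, 0 with the replicate block and 0 to 2 with an array left out; DNAJB5 and DNAJC17 both lost their call without each siControl array and without siRND3 replicate 2. At 48 h they numbered 9, and 3 with no filter on dim probes and 3 to 10 with an array left out, the fewest without siControl replicate 1. The 3 members with an effect differing between times became 0 to 1 with an array left out, 1 being left without siRND3 replicate 3. Those changed with time numbered 2 in siControl cells, and 4 with normexp, 1 with no filter, 1 with the mean of all probes and 1 with any array left out. In siRND3 cells they numbered 8, and 5 with no filter and 5 to 7 with an array left out, 5 without siControl replicate 1, siControl replicate 3 or siRND3 replicate 3. The cause of these shifts was not tested.

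Signs turned for members near 0 at 24 h that were not called. DNAJB13 (-0.08) became 0.01 with the 75th percentile, 0.03 with normexp, 0.10 with the deposited values and 0.11 with all 8 arrays. DNAJC12 (-0.18) became 0.08 with all 8 arrays. DNAJC28 (0.18) became -0.0035 with normexp and -0.05 with the deposited values. HSPA8 (-0.04) became 0.0043 with the 75th percentile and 0.00096 with all 8 arrays, and ranged from -0.12 to 0.06 with an array left out, while DNAJA1 (0.01) ranged from -0.06 to 0.08, being -0.05 without siControl replicate 2. The scalings kept the median of all genes at 24 h between 0.03 and 0.07.

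Same-numbered arrays were not shown to be pairs: their deviations correlated at 0, -0.01 and 0.13 for numbers 1, 2 and 3. With the replicate block 6 members were lower at 24 h and 0 higher, and over all genes 824 were lower and 392 higher, against 1371 and 1060 without it.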
